A study of Mus musculus with 9 samples.

Results

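The genes described here copy DNA and divide the cell. A total of 39 genes were named for the module, 21 of DNA replication and S-phase entry and 18 of mitosis, and they were looked up by exact gene name in a deposited table of 41096 genes. By that rule 37 were found, 19 for replication and 18 for mitosis. The rows of Tyms and Uhrf1 carry only an identifier in the name column and were recognised through the UniProt match in the table's description, so their values are given but not counted. The 2 cyclin E genes, which act at S-phase entry, were placed with replication.

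The samples are peritoneal lavage cells of mice lacking apolipoprotein E (APOE-/-), a strain prone to atherosclerosis. All mice were fed a western diet for 8 weeks. The 4 diabetic samples came from mice injected intraperitoneally with streptozotocin, which destroys the insulin-producing beta cells, at 40 mg/kg daily for 5 days from the age of 8 weeks. The 5 control samples came from mice given citrate buffer on the same schedule. Every mouse then received 1.5 mL of 3% thioglycollate, an irritant that recruits leukocytes, and was lavaged 3 days later with 10 mL of PBS. The labels call the cells peritoneal macrophages but state neither a sort nor an adherence step, and do not say whether a sample is 1 mouse or a pool. The p-values therefore measure the spread between these samples.

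A cell that divides must first license its origins of replication. The proteins Cdc6 and Cdt1 load the ring of Mcm2 to Mcm7 onto DNA, and Cdc45 and the GINS complex later turn that ring into an active helicase. Ribonucleotide reductase then supplies the building blocks. Many genes of this phase are switched on by E2F transcription factors, while genes of mitosis are switched on later, through the MuvB complex and its CHR element and through NF-Y at CCAAT boxes. Thioglycollate macrophages are mostly recruited from blood monocytes, and macrophages are known to be able to proliferate in inflamed tissue and in atherosclerotic plaques.

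Values are FPKM, fragments per kilobase of gene, scaled between samples by size factors (medians of gene ratios between samples) and not by each sample's own depth. Each sample held 14156421 to 16169060 reads in genes. On the first principal component (36.0% of the variance) diabetic 1, 2 and 4 lay between -30.5 and -20.9 and the controls between 11.2 and 23.5. Diabetic 3 lay between them, at -1.44, so it stands apart from its group. Macrophage markers were abundant in every sample: the 10 general macrophage genes measured summed to 5903 to 9937 FPKM in diabetic samples and to 7466 to 11274 FPKM in control samples. In limma 1 of these 10, Mrc1, was lower in diabetic samples and 0 were higher. The fold change was below 0 for 9 of the 10. Markers of lymphocytes were present too. The summed level of 15 T cell genes was 313, 554, 156 and 495 FPKM in diabetic 1 to 4, against 57.8 to 91.1 FPKM in the controls, and 13 of the 14 T cell genes tested were higher in diabetic samples. Of these Lef1 reached 1 FPKM in diabetic samples only, so it was tested through them alone. The 12 B cell genes summed to 1629 to 3488 FPKM in diabetic samples and to 1066 to 2241 FPKM in control samples, with 3 of 12 higher. The 7 natural killer cell genes summed to 43.8 to 78.8 FPKM in diabetic samples and to 28.1 to 65.2 FPKM in control samples, with 1 of 7 higher. Fold changes were below 0 for all 3 eosinophil genes and all 5 mast cell genes tested, and 0 of them passed. No marker gene of these lists was at 0 in every sample. A bulk level cannot tell more cells of a type from more RNA per cell.

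The promoters of the 2 groups of genes differed in their short motifs. Promoter sequences, from 250 bases before to 50 bases after each annotated start, came from RefSeq (build GRCm38.p6), and 31 of the 37 members had an entry. Mcm4, Gins2, Ccne2, Ccna2, Aurkb and Tpx2 had none. Motifs were searched on both strands, in any window of a gene: TTCCCGC or TTGGCGC for E2F, TTTGAA or TTCGAA for the CHR element, and CCAAT. An E2F match was found in 9 of 16 replication genes (56.3%), in 3 of 15 mitosis genes (20%) and in 2105 of all 27025 genes with an entry (7.79%). A CHR match was found in 4 of 16 replication genes (25%), in 12 of 15 mitosis genes (80%) and in 21.7% of all genes. CCAAT was found in 10 of 16 replication genes (62.5%), in 13 of 15 mitosis genes (86.7%) and in 41.1% of all genes. These are letter matches, described without a test, and the E2F and CCAAT letters can overlap where GCGCCAA is followed by T. Below are the 200 bases before the start of 6 genes, with the matches in capitals. Rrm2 is the gene with the smallest p of the module. Mcm7, Rrm1 and Mcm6 are the replication genes next to it in p that hold an E2F match in these bases, and Cdc20 and Ube2c are the mitosis genes with the smallest p.
Rrm2 (chr12:24708054-24708253, plus strand): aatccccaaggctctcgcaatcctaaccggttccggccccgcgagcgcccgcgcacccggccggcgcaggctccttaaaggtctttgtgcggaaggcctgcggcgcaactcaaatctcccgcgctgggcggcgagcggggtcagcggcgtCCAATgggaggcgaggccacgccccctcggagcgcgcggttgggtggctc
Mcm7 (chr5:138171884-138172083, minus strand, 1 of 2 annotated starts): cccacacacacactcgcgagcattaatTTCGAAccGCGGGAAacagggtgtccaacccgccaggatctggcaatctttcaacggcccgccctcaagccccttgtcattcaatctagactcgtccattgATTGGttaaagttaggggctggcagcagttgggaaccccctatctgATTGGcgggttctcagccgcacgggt
Rrm1 (chr7:102441495-102441694, plus strand): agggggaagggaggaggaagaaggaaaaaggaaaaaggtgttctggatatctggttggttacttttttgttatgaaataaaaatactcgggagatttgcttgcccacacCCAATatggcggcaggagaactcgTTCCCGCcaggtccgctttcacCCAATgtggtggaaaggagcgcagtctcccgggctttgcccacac
Mcm6 (chr1:128359706-128359905, minus strand): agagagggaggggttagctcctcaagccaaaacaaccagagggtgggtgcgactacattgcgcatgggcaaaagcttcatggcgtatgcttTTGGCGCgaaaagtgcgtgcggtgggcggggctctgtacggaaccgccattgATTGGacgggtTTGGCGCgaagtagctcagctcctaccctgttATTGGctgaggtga
Cdc20 (chr4:118437344-118437543, minus strand): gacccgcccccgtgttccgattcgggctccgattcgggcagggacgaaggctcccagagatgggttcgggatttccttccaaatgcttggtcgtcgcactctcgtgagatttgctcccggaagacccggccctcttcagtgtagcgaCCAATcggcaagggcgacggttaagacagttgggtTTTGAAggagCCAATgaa
Ube2c (chr2:164769729-164769928, plus strand): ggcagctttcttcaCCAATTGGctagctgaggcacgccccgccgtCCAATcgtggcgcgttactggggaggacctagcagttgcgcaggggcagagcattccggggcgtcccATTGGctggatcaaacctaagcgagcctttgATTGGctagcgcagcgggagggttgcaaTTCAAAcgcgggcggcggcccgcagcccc

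The capitals in Rrm2 are a single CCAAT at position -50 from the start. In Mcm7 they are a CHR match at -173, an E2F match at -165 and reverse CCAAT matches at -72 and -26. Rrm1 has an E2F match at -67 between CCAAT matches at -91 and -45. Mcm6 has E2F matches at -109 and -46 and reverse CCAAT matches at -57 and -14. In Cdc20 a CHR match at -18 lies between CCAAT matches at -53 and -8. In Ube2c a reversed CHR match at -29 follows CCAAT matches on either strand, of which those at -186 and -183 overlap. The E2F matches of Cdt1 lie after its start, at 19 and 34.

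**Figure D1:**
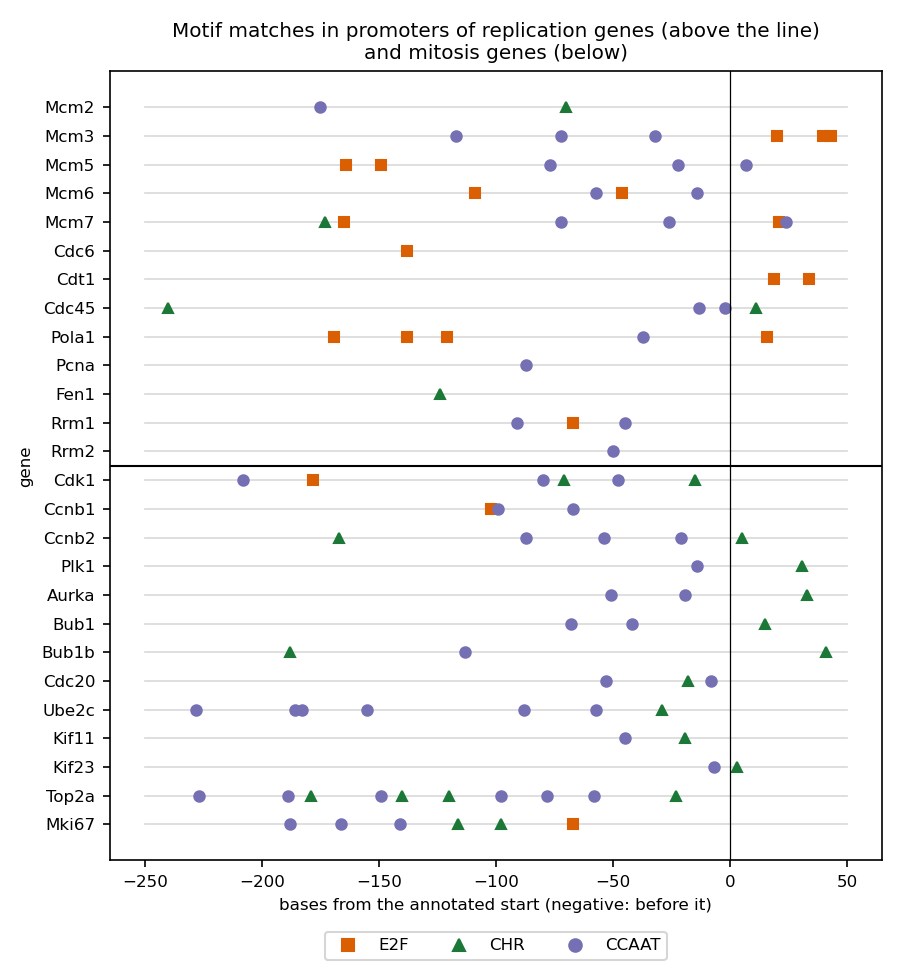
Positions of E2F (orange squares), CHR (green triangles) and CCAAT (purple circles) letter matches, in bases from the first annotated start of each gene; each grey line is 1 promoter, with replication genes above the black line and mitosis genes below it. Genes with no match in that window are not drawn; squares are mostly above the line (9 of 16 replication genes hold one, counting all starts, against 3 of 15 mitosis genes) and triangles mostly below it (12 of 15 mitosis genes against 4 of 16 replication genes).

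In diabetic samples 2 replication genes rose, and 0 of the mitosis genes passed the test. Rrm2, the regulatory subunit of ribonucleotide reductase, and Cdt1, the origin licensing factor, were the genes that rose. A member was tested where it reached 1 FPKM in at least 4 samples, and it passed where its limma p, two-sided and adjusted by Benjamini-Hochberg over all 11193 genes tested, was below 0.05. Of the 37 members, 33 were tested, 2 were higher and 0 lower. Over all genes tested 533 passed (4.76%), of which 300 were higher (2.68%) and 233 lower (2.08%). Without adjustment 10 of the 33 members had p below 0.05, all of them higher, where 22.4% of all genes had such a p and 11.1% were higher with it. By the same limma fit 7 of these 10 were replication genes and 3 were mitosis genes. Every diabetic sample lay above every control sample for Rrm2, Cdt1 and Mcm6, a pattern that 4.82% of all genes showed. The reverse pattern, shown by 4.6% of all genes, was found in 0 members.

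The direction of the small differences was mostly upward. The log2 fold change, diabetic minus control on log2(FPKM + 1), was above 0 for 15 of 16 replication genes and for 14 of 17 mitosis genes tested, while it was above 0 for 47.7% of all genes tested. Its median was 0.25 over the replication genes and 0.18 over the mitosis genes, and -0.01 over all genes. Without the filter it was above 0 for 16 of 19 replication genes and for 14 of 18 mitosis genes. The medians were then 0.24 and 0.17, against -0.0019 over all 22471 genes of that fit. Genes of a list share samples and vary together, so these counts describe the list and are not independent observations. Whether the lists differ from each other was not tested.

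**Figure D2:**
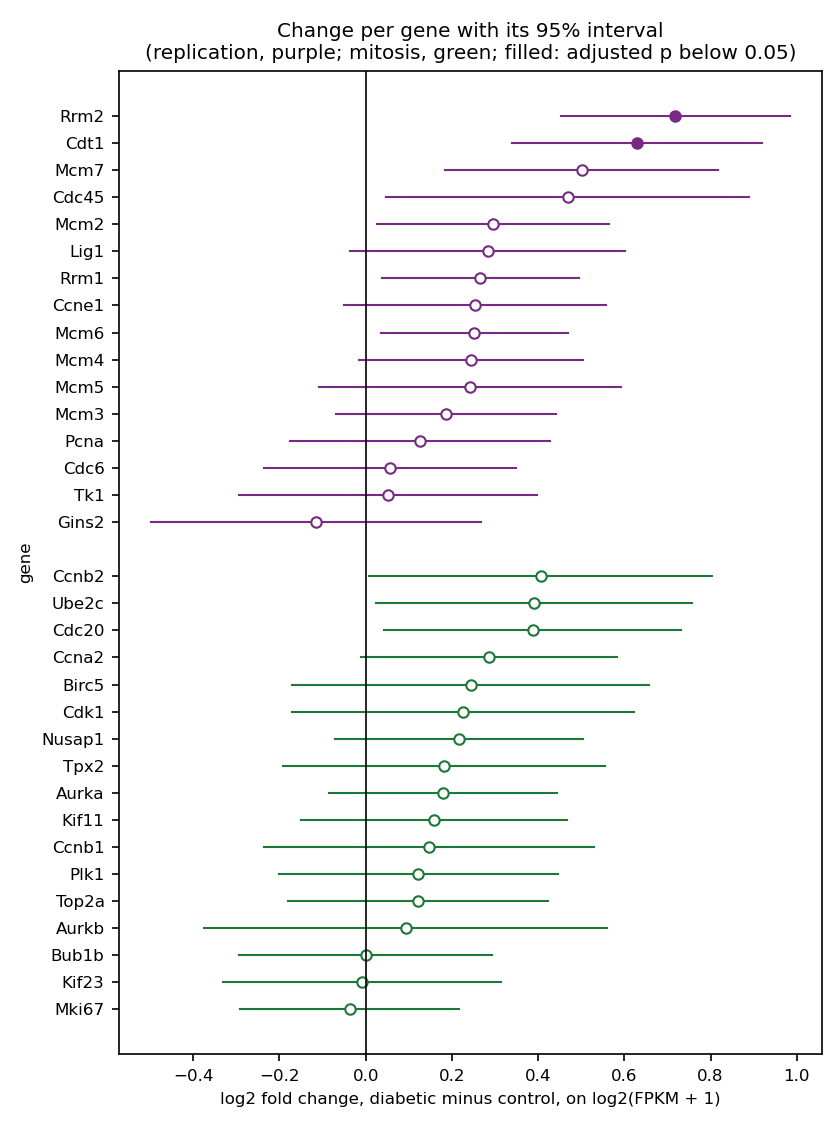
Log2 fold change of each tested member, diabetic minus control on log2(FPKM + 1), with its 95% interval from limma; replication genes are purple, mitosis genes green, and filled points passed the adjusted test. Rrm2 (0.72) and Cdt1 (0.63) are the filled points, and most of the other intervals include 0 while 29 of the 33 points lie to its right.

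Nucleotide supply held the clearest rise. Rrm2 (MGP_C57BL6NJ_G0020024, chromosome 12, 23078505 to 23084410, plus strand, as the table gives it) is the subunit of ribonucleotide reductase whose level follows S phase. It measured 8.36, 7.70, 6.58 and 7.89 FPKM in diabetic 1 to 4, against 3.74, 5.56, 3.66, 4.27 and 4.12 FPKM in control 1 to 5. All 4 diabetic samples stood above all 5 controls, and control 2 came nearest to them. The means were 7.63 ± 0.752 FPKM in diabetic samples and 4.27 ± 0.766 FPKM in controls (SD, n = 4 and 5), a 1.79-fold ratio. The log2 fold change was 0.72 (SE 0.12, 95% interval 0.45 to 0.98, limma adjusted p = 0.013), and Rrm2 passed in all 9 fits that leave out 1 sample. Its partner Rrm1, the large catalytic subunit, measured 14.6, 15.9, 13.3 and 15.01 FPKM in diabetic samples, against 11.9, 14.1, 11.5, 12.7 and 10.3 FPKM in controls. The groups overlapped, since diabetic 3 lay below control 2, and Rrm1 did not pass (log2 fold change 0.27, SE 0.10, limma adjusted p = 0.16). Tk1, the thymidine salvage kinase, averaged 3.31 FPKM in diabetic samples and 3.20 FPKM in controls (log2 fold change 0.05, limma adjusted p = 0.88). Tyms, thymidylate synthase, averaged 3.32 ± 0.623 FPKM in diabetic samples and 3.10 ± 1.27 FPKM in controls (limma adjusted p = 0.78).

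Origin licensing was the other role with a gene that rose. Cdt1 (MGP_C57BL6NJ_G0034724, chromosome 8, 130332486 to 130338834, plus strand, as the table gives it) measured 20.5, 19.4, 13.5 and 19.5 FPKM in diabetic 1 to 4, against 12.7, 11.5, 12.2, 10.7 and 9.64 FPKM in control 1 to 5. Diabetic 3 was far below the other diabetic samples and just above control 1, and the groups did not overlap. The means were 18.2 ± 3.18 FPKM in diabetic samples and 11.3 ± 1.22 FPKM in controls (SD, n = 4 and 5), a 1.61-fold ratio. The log2 fold change was 0.63 (SE 0.13, 95% interval 0.34 to 0.92, limma adjusted p = 0.025). The call was less stable than that of Rrm2. It was lost on leaving out control 3, 4 or 5 or diabetic 1, 2 or 4 (adjusted p = 0.050 to 0.086), and with no filter on low genes (adjusted p = 0.061), within a range of 0.0025 to 0.109 over its 19 alternatives. Cdc6, which loads the ring together with Cdt1, was near the filter and averaged 1.15 ± 0.199 FPKM in diabetic samples and 1.07 ± 0.267 FPKM in controls (log2 fold change 0.06, limma adjusted p = 0.84).

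The 6 subunits of the Mcm2 to Mcm7 ring all had fold changes above 0, and 0 of the 6 passed. Mcm7 came nearest. It measured 17.6, 19.1, 12.7 and 17.8 FPKM in diabetic samples, against 11.8, 14.1, 12.3, 10.2 and 9.33 FPKM in controls. Diabetic 3 again lay among the controls, below control 2. Mcm7 had a log2 fold change of 0.50 (SE 0.14, limma adjusted p = 0.074), and it passed on leaving out diabetic 3 (log2 fold change 0.62, adjusted p = 0.016), within a range of 0.010 to 0.198 over its 19 alternatives. Mcm6 measured 19.9, 20.3, 19.2 and 21.8 FPKM in diabetic samples, against 15.6, 17.9, 17.5, 19.1 and 14.6 FPKM in controls. The groups did not overlap, but diabetic 3 and control 4 nearly touched, and Mcm6 did not pass (log2 fold change 0.25, SE 0.10, limma adjusted p = 0.16). Mcm2 measured 6.09, 6.53, 5.28 and 8.41 FPKM in diabetic samples, against 4.63, 5.28, 5.55, 4.77 and 5.36 FPKM in controls. Diabetic 4 was the highest and diabetic 3 lay within the controls (log2 fold change 0.30, limma adjusted p = 0.18). Mcm4 measured 11.1, 8.65, 10.8 and 12.8 FPKM in diabetic samples, against 9.29, 9.12, 7.69, 10.1 and 8.58 FPKM in controls. Here diabetic 2 was the low diabetic sample, among the controls (log2 fold change 0.24, limma adjusted p = 0.25). Mcm3 averaged 21.3 ± 2.69 FPKM in diabetic samples and 18.6 ± 2.25 FPKM in controls (limma adjusted p = 0.37), and Mcm5 16.9 ± 3.38 FPKM in diabetic samples and 14.1 ± 2.75 FPKM in controls (limma adjusted p = 0.40).

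Genes of the active fork did not pass. Cdc45, which travels with the helicase, measured 4.21, 4.69, 2.76 and 4.24 FPKM in diabetic samples, against 1.49, 3.86, 2.80, 2.81 and 2.23 FPKM in controls. Diabetic 3 lay inside the control range, and control 1 was the lowest of all (log2 fold change 0.47, SE 0.19, limma adjusted p = 0.18). Gins2, a GINS subunit, was the 1 tested replication gene with a fold change below 0, at 1.62 ± 0.132 FPKM in diabetic samples and 1.90 ± 0.729 FPKM in controls (log2 fold change -0.12, limma adjusted p = 0.74). Pcna, the sliding clamp that holds the polymerases on DNA, had the highest level of the module. It averaged 80.3 ± 7.61 FPKM in diabetic samples and 74.2 ± 14.2 FPKM in controls (log2 fold change 0.13, 95% interval -0.18 to 0.43, limma adjusted p = 0.63). Lig1, the ligase that seals the lagging strand, measured 9.72, 8.06, 6.43 and 8.16 FPKM in diabetic samples, against 5.78, 8.51, 6.47, 6.62 and 5.09 FPKM in controls. The groups overlapped, with control 2 above 3 diabetic samples (log2 fold change 0.28, limma adjusted p = 0.28). Pola1, a subunit of the priming polymerase, and Fen1, the flap nuclease, were under the filter. Pola1 averaged 0.766 FPKM in diabetic samples and 0.931 FPKM in controls, and Fen1 0.427 FPKM in diabetic samples and 0.512 FPKM in controls. Ccne1, the cyclin that drives the G1 to S transition, measured 4.74, 3.01, 2.53 and 3.81 FPKM in diabetic samples, against 2.67, 2.86, 2.85, 2.71 and 2.57 FPKM in controls. The controls were tightly grouped and diabetic 3 lay just below them (log2 fold change 0.25, limma adjusted p = 0.31). Its relative Ccne2 was under the filter, at 0.703 FPKM in diabetic samples and 0.682 FPKM in controls. Uhrf1, which carries DNA methylation through replication, averaged 3.92 ± 1.06 FPKM in diabetic samples and 3.29 ± 0.241 FPKM in controls (limma adjusted p = 0.51), and pseudogene rows of the same name may share its reads.

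**Figure D3:**
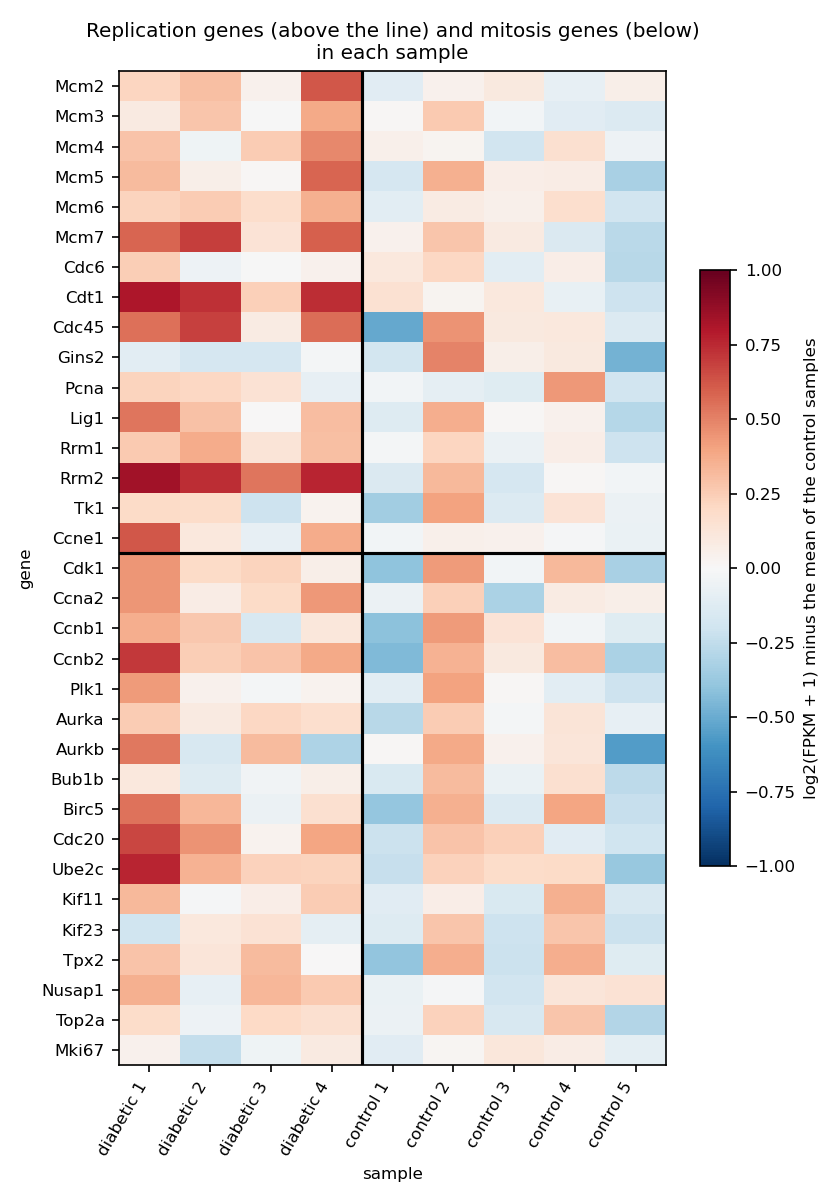
Log2(FPKM + 1) of each tested member in each sample, minus the mean of the control samples (colour; red is higher); columns are diabetic 1 to 4 and then control 1 to 5, and rows are replication genes above the line and mitosis genes below it. Rrm2 and Cdt1 of diabetic 1, 2 and 4 and Ube2c of diabetic 1 are among the darkest red cells, Rrm2 and Cdt1 are paler in diabetic 3, and control 1 and control 5 are mostly blue among mitosis genes.

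Mitosis genes were low in every sample. In limma 0 of 17 tested passed, a count near the share of all genes tested that passed (4.76%). Their mean levels lay between 1.36 and 7.03 FPKM, with a median of 3.28 FPKM, while the replication genes lay between 1.11 and 76.9 FPKM, with a median of 8.50 FPKM. Mki67, the antigen used to mark cycling cells, is shown per sample although its p is not among the 10 smallest. It measured 1.46, 1.02, 1.31 and 1.53 FPKM in diabetic samples, against 1.20, 1.41, 1.58, 1.51 and 1.23 FPKM in controls. The groups overlapped over most of their range, with a log2 fold change of -0.04 and a 95% interval of -0.29 to 0.22 (limma adjusted p = 0.88). At an unadjusted p below 0.05 in limma there were 3 mitosis genes, Cdc20, Ube2c and Ccnb2, all with higher means in diabetic samples.

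The genes of mitotic exit and the cyclins Ccnb2 and Ccna2 carried the larger differences of the mitosis genes. Cdc20, which activates the anaphase-promoting complex, measured 7.25, 6.09, 4.34 and 5.83 FPKM in diabetic samples, against 3.48, 5.35, 5.14, 3.81 and 3.52 FPKM in controls. Diabetic 3 lay inside the control range, and the other diabetic samples above it (log2 fold change 0.39, SE 0.16, limma adjusted p = 0.18). Ube2c, the ubiquitin-conjugating enzyme of the same complex, measured 6.87, 4.93, 4.46 and 4.44 FPKM in diabetic samples, against 2.97, 4.47, 4.28, 4.33 and 2.58 FPKM in controls. Diabetic 1 was far above the rest, and diabetic 3 and 4 were level with control 2 (log2 fold change 0.39, SE 0.17, limma adjusted p = 0.20). Ccnb2, a B-type cyclin, measured 10.3, 7.21, 7.44 and 7.99 FPKM in diabetic samples, against 4.09, 7.80, 6.41, 7.53 and 4.55 FPKM in controls. Again diabetic 1 was the highest, and control 1 and control 5 were the lowest (log2 fold change 0.41, SE 0.18, limma adjusted p = 0.22). Ccna2, cyclin A2, measured 3.96, 2.84, 3.17 and 3.91 FPKM in diabetic samples, against 2.49, 3.29, 1.92, 2.86 and 2.80 FPKM in controls. The groups overlapped (log2 fold change 0.29, limma adjusted p = 0.24). Cdk1, the kinase these cyclins activate, measured 5.15, 4.17, 4.28 and 3.72 FPKM in diabetic samples, against 2.43, 5.09, 3.46, 4.69 and 2.63 FPKM in controls. Control 2 and control 4 lay within the diabetic range and control 1 and control 5 far below it (log2 fold change 0.23, limma adjusted p = 0.50). Ccnb1 averaged 2.07 ± 0.466 FPKM in diabetic samples and 1.80 ± 0.604 FPKM in controls (limma adjusted p = 0.66).

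Kinases and spindle genes overlapped between the groups as well. Aurka, the centrosomal kinase, measured 3.79, 3.29, 3.64 and 3.52 FPKM in diabetic samples, against 2.31, 3.81, 2.96, 3.405 and 2.80 FPKM in controls. Tpx2, which activates Aurka on the spindle, measured 4.74, 4.15, 4.87 and 3.75 FPKM in diabetic samples, against 2.60, 5.06, 3.06, 5.09 and 3.35 FPKM in controls. In both genes the diabetic samples fell inside the control range (log2 fold change 0.18 and limma adjusted p = 0.41 for Aurka, 0.18 and 0.57 for Tpx2). Birc5, survivin of the chromosomal passenger complex, measured 4.95, 4.14, 2.94 and 3.58 FPKM in diabetic samples, against 2.14, 4.23, 2.72, 4.40 and 2.50 FPKM in controls (limma adjusted p = 0.48). Nusap1, a microtubule-binding protein, measured 1.87, 1.12, 1.83 and 1.69 FPKM in diabetic samples, against 1.14, 1.22, 0.967, 1.44 and 1.48 FPKM in controls (limma adjusted p = 0.36). Diabetic 2 was here the low diabetic sample. Kif11, the motor that separates the spindle poles, measured 1.88, 1.29, 1.41 and 1.75 FPKM in diabetic samples, against 1.13, 1.42, 1.07, 1.94 and 1.06 FPKM in controls (limma adjusted p = 0.54). The other tested genes, Plk1, Aurkb, Top2a, Bub1b and the cytokinesis motor Kif23, had log2 fold changes between -0.01 and 0.12 and adjusted p of 0.64 or more. Bub1, a kinase of the spindle checkpoint, was under the filter, at 0.615 FPKM in diabetic samples and 0.639 FPKM in controls.

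Among controls the mitosis genes had the higher median spread, described here without a test. The median coefficient of variation was 17.2% in diabetic samples and 24.4% in control samples for mitosis genes, and 16.4% in diabetic samples and 17.0% in control samples for replication genes. Counting error alone gives a median of 7.67% for the mitosis genes, which had 56 to 534 reads per sample, and of 4.47% for the replication genes, which had 52 to 3339 reads. The mean of log2(FPKM + 1) over the 17 mitosis genes, given relative to its control mean, was 0.37, 0.09, 0.13 and 0.14 in diabetic 1 to 4, against -0.21, 0.27, -0.04, 0.17 and -0.20 in control 1 to 5. Control 2 and control 4 lay above 3 of the 4 diabetic samples. The same mean over the 16 replication genes was 0.37, 0.29, 0.08 and 0.38 in diabetic samples, against -0.09, 0.22, -0.01, 0.06 and -0.18 in controls. Diabetic 1, 2 and 4 lay above every control, and diabetic 3 lay below control 2. Control 5 was the lowest sample for 10 of the 16 replication genes, and diabetic 1 was the highest sample for 9 of the 17 mitosis genes.

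**Figure D4:**
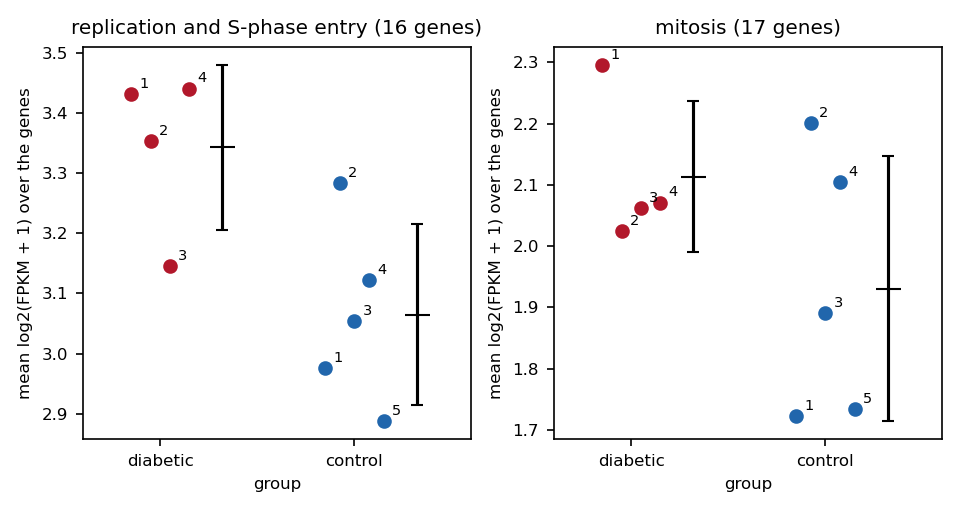
Mean log2(FPKM + 1) over the 16 tested replication genes (left) and the 17 tested mitosis genes (right); each point is 1 sample, numbered, and the bars are the group mean with 1 SD (n = 4 diabetic, 5 control). Replication means ran from 3.15 to 3.44 in diabetic samples and from 2.89 to 3.28 in controls, and for mitosis diabetic 2, 3 and 4 lie inside the control range.

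The diabetic sample with the least T cell and B cell signal was also low for several replication genes. Its mean over the 16 tested replication genes was the lowest of its group. Diabetic 3 had the lowest summed T cell level of the diabetic group, 156 FPKM, and it was also the lowest diabetic sample for Rrm2 (6.58 FPKM), Cdt1 (13.5 FPKM) and Mcm7 (12.7 FPKM). Among the other diabetic samples the order was the reverse for Rrm2 and Cdt1. For Mcm7 it was the same as for the T cell sum, with 17.6, 19.1 and 17.8 FPKM in diabetic 1, 2 and 4. Diabetic 1 had a T cell sum of 313 FPKM with the highest Rrm2 (8.36 FPKM) and Cdt1 (20.5 FPKM) of the group. Diabetic 2 had a T cell sum of 554 FPKM, with Rrm2 at 7.70 FPKM and Cdt1 at 19.4 FPKM. Diabetic 4 lay between them, with 495 FPKM of T cell genes, 7.89 FPKM of Rrm2 and 19.5 FPKM of Cdt1. Other cell types differed in diabetic 3 as well. Of the diabetic samples it had the lowest B cell sum (1629 FPKM) and the highest general macrophage (9937 FPKM) and natural killer cell (78.8 FPKM) sums. Among the controls the T cell sum stayed between 57.8 and 91.1 FPKM. Control 2 had the lowest B cell sum of the controls (1066 FPKM) but their highest replication mean (0.22 relative to the control mean). The part of lymphocytes or of other cell types in the changes of Rrm2 and Cdt1 was not tested.

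Other genes of the cell cycle changed in few cases. Of 187 further genes listed in 10 groups, none of them members, 186 were found, by name, alias or UniProt match, and 130 were tested. In limma 5 of the 130 were higher in diabetic samples and 2 were lower, a share near that of all genes tested (2.68% higher and 2.08% lower, 4.76% together). Their fold change was above 0 for 101 of the 130, with a median of 0.14, and for 47.7% of all genes, with a median of -0.01. The 5 higher genes act in DNA synthesis, nucleotide salvage, chromatin, CDK binding and chromosome condensation, and the 2 lower ones in G1 control.

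The lower genes were the cell cycle regulators E2f1 and Cdkn2a. E2f1, a founding E2F transcription factor of the G1 to S transition, measured 8.42, 6.43, 7.96 and 6.92 FPKM in diabetic samples, against 11.6, 15.4, 15.03, 14.0 and 11.7 FPKM in controls. No diabetic sample reached the lowest control. The means were 7.43 ± 0.917 FPKM in diabetic samples and 13.5 ± 1.80 FPKM in controls (SD, n = 4 and 5). E2f1 fell by 0.78 on the log2 scale (SE 0.12, limma adjusted p = 0.0079), and it passed in all 9 fits that leave out 1 sample. It was the only 1 of 15 tested E2F, RB and MYB-MuvB genes that passed. E2f2, another activating E2F, averaged 7.06 ± 1.41 FPKM in diabetic samples and 6.03 ± 1.25 FPKM in controls (limma adjusted p = 0.51), and E2f4, which mainly represses, 30.6 ± 2.59 FPKM in diabetic samples and 28.7 ± 2.25 FPKM in controls (limma adjusted p = 0.64). These last 2 were named after their values were seen. Cdkn2a, which encodes the inhibitors p16 and p19Arf, measured 1.74, 0.983, 1.37 and 1.81 FPKM in diabetic samples, against 2.86, 3.01, 5.20, 4.01 and 2.22 FPKM in controls. All diabetic samples lay below all controls, on 17 to 33 reads in diabetic samples and 42 to 87 reads in controls. Cdkn2a fell by 0.83 on the log2 scale (SE 0.19, limma adjusted p = 0.034), the 1 of 6 tested CDK inhibitors that passed. That call was lost on leaving out control 1, 3 or 4 or diabetic 1, 2 or 4, with no filter, and in voom on recovered reads (adjusted p = 0.053 to 0.109 in these fits, within a range of 0.026 to 0.109 over 18 alternatives).

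**Figure D5:**
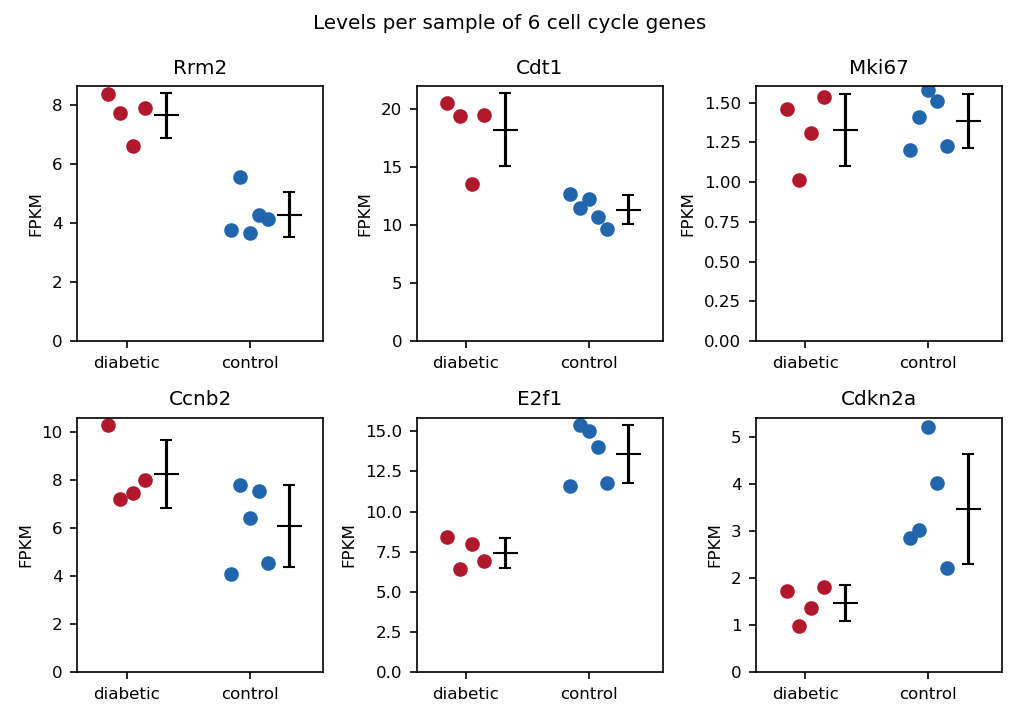
FPKM of 6 genes in each sample (points, diabetic left and control right) with the group mean and 1 SD (n = 4 diabetic, 5 control), each axis from 0. Rrm2 and Cdt1 are higher in the diabetic samples, E2f1 and Cdkn2a lower, and the groups overlap for Mki67 and Ccnb2.

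Higher levels were found in genes that work beside the members. Hmgb2, a chromatin protein abundant in dividing cells, measured 24.5, 25.3, 25.3 and 24.7 FPKM in diabetic samples, against 15.8, 15.6, 11.5, 18.6 and 16.1 FPKM in controls. Its row, like those of Tyms and Uhrf1, was recognised only through the UniProt match. The diabetic samples were almost level, diabetic 3 included, and all lay above the controls (log2 fold change 0.67, SE 0.12, limma adjusted p = 0.017). Cks1b, a small subunit bound to CDKs, measured 15.3, 16.2, 12.7 and 12.8 FPKM in diabetic samples, against 8.58, 10.3, 9.27, 9.80 and 9.81 FPKM in controls. The groups were separate (log2 fold change 0.53, SE 0.10, limma adjusted p = 0.019). Rfc4, a subunit of the loader of Pcna, measured 6.84, 7.82, 7.33 and 6.39 FPKM in diabetic samples, against 3.44, 5.31, 3.83, 4.41 and 5.42 FPKM in controls (log2 fold change 0.57, limma adjusted p = 0.032). Dck, deoxycytidine kinase of nucleotide salvage, measured 21.0, 16.5, 27.0 and 22.7 FPKM in diabetic samples, against 15, 9.95, 7.17, 13.1 and 13.8 FPKM in controls (log2 fold change 0.85, limma adjusted p = 0.040). Diabetic 3, low for Cdt1 and Mcm7, was the highest sample for Dck. Ncapd2, a condensin subunit, measured 5.28, 4.68, 3.68 and 5.21 FPKM in diabetic samples, against 2.70, 3.80, 2.91, 2.65 and 2.72 FPKM in controls (log2 fold change 0.53, limma adjusted p = 0.039). Here diabetic 3 lay below control 2. Each of these 5 calls was lost on leaving out some single samples, with adjusted p up to 0.059 for Hmgb2 (without diabetic 2 or 4), 0.067 for Cks1b (without control 3 or diabetic 1 or 2) and 0.104 for Rfc4 (without control 1, 3 or 4 or diabetic 1, 2 or 4). For Dck it was lost in 8 of 9 such fits (all but that without control 1; up to 0.117) and for Ncapd2 in 7 of 9 (all but those without control 2 or diabetic 3; up to 0.122). With no filter on low genes the calls of Rfc4, Dck and Ncapd2 were lost as well (adjusted p = 0.071, 0.099 and 0.083).

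In the lists with no passing gene the smallest p belonged to the following genes, given as values. Tipin and Timeless, the fork protection pair, averaged 11.6 ± 1.29 FPKM and 1.70 ± 0.491 FPKM in diabetic samples, against 8.20 ± 1.30 FPKM and 0.893 ± 0.359 FPKM in controls (limma adjusted p = 0.060 and 0.11). Ska2 and Mad2l1, of the kinetochore and its checkpoint, averaged 1.23 ± 0.117 FPKM and 1.84 ± 0.148 FPKM in diabetic samples, against 0.877 ± 0.243 FPKM and 1.48 ± 0.208 FPKM in controls (limma adjusted p = 0.27 and 0.31). Among controls Ska2 reached 1 FPKM in control 5 alone and Timeless in control 2 and control 3 alone. Both genes were tested only because every diabetic sample reached 1 FPKM, so their differences are partly selected by the filter. Wee1, the kinase that restrains Cdk1, averaged 9.55 ± 3.36 FPKM in diabetic samples and 13.1 ± 1.93 FPKM in controls (limma adjusted p = 0.18), and Rbbp8, of DNA end resection, 5.10 ± 1.58 FPKM in diabetic samples and 5.23 ± 0.613 FPKM in controls (limma adjusted p = 0.86).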

How the data were processed

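RNA from peritoneal lavage cells was made into libraries with a SMARTER kit for mRNA, per the labels' protocols. The authors deposited 1 table of FPKM values for 41096 genes in 9 samples, with gene lengths and positions, per the file headers; 0 columns of sample values stayed unmatched. How reads were aligned and counted, and whether by strand, is not given in the sources used here, so reads of a gene and of an antisense or near-identical copy cannot be told apart. GRCm38 and mm10 are the builds in the submitters' processing notes. Of the 37 members, 37 lay on the same chromosome as in RefSeq GRCm38.p6 but 0 had the same start. The gene identifiers begin with MGP_C57BL6NJ and so name the gene set of the C57BL6NJ strain. The build of the table's positions is not named by these sources. Every FPKM value is a whole multiple of 1 read, within 0.05 of a read, already scaled between samples by size factors.

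Samples were grouped by their labels. The comparison of diabetic with control samples was fitted in limma 3.58.1 (R 4.3.3) on log2(FPKM + 1), with trended and robust moderation, for genes at 1 FPKM or more in at least 4 samples, over all 9 samples, two-sided, with Benjamini-Hochberg adjustment over all genes tested; the scale understates changes of low genes. The fit was tested on simulated data, with noise drawn separately for each gene and sample, and the outcome is not given here. Shifts shared by many genes of a sample were not simulated. Promoter windows came from RefSeq tables. PCR copies cannot be told from molecules, so the counting error given is a lower limit.

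The members, the gene lists and the alternatives were chosen with earlier results of these data known. Per-sample values are given for members that passed and, in order of p, for others until 10 per list; Mki67 was added outside this rule, with its values known, and so were E2f2 and E2f4. From each further list up to 4 passing genes are named or, where none passed, the 2 with the smallest p. Alternatives were other pseudocounts, filters, scaling, sample weights, a replicate block, leaving out each sample in turn and, chosen after seeing the data, limma with voom weights on reads recovered from FPKM. The labels do not state that the replicate numbers pair the samples.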

Additional observations from a re-analysis of the deposited data

Results flagged for a closer look

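Each group of samples was checked for each member and for the mean of each list. In 6 of 78 checks, all of members, a single sample stood far from the rest of its group, where chance gives about 1 in 20. Cdt1 measured 13.5 FPKM in diabetic 3, while the other diabetic samples lay at 19.4 to 20.5 FPKM. Ccne2, under the filter on low genes, measured 0.820 FPKM in diabetic 3 and 0.659 to 0.673 FPKM in the other diabetic samples. Plk1 measured 3.90 FPKM in diabetic 1 and 2.61 to 2.77 FPKM in the other diabetic samples. Top2a measured 3.04 FPKM in diabetic 2 and 3.68 to 3.81 FPKM in the other diabetic samples. Pcna measured 99.1 FPKM in control 4 and 64.0 to 71.8 FPKM in the other controls. Bub1, also under the filter, measured 1.06 FPKM in control 4 and 0.458 to 0.599 FPKM in the other controls.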

How the results depend on the processing

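The number of genes past the threshold depended on the processing, and the cause was not tested. It was 533 in all, 1304 with array weights, 183 with no filter, 62 with a replicate block and 115 to 1126 on leaving out 1 sample, the highest without diabetic 3 and the lowest without diabetic 4. Of the replication members 2 passed; 6 did with array weights (Cdc45, Cdt1, Lig1, Mcm7, Rrm1 and Rrm2), 1 with no filter (Rrm2), 0 with the replicate block, and 1 to 3 on leaving out 1 sample. Of the mitosis members 0 passed, and 3 did with array weights (Ccnb2, Cdc20 and Ube2c). The replicate block ended the call of every gene named as passing, among them Rrm2 (limma adjusted p = 0.071), Cdt1 (0.109) and E2f1 (0.063). The labels state no pairing by number, and no sign of it was seen. The deviations of same-numbered samples correlated across genes at 0.02, 0.16, -0.26 and -0.18, and those of differently numbered samples at -0.30 to 0.33. With so few samples this cannot exclude a pairing. Control 5, with no partner, adds nothing to the replicate block fit. The median log2 fold change of mitosis members was 0.40 with a filter of 5 FPKM, which leaves 2 genes; on leaving out 1 sample it ran from 0.11 to 0.25, and that of replication members from 0.20 to 0.32. Over 46 genes and 849 values under alternatives, 759 kept their direction and side of the threshold, 53 lost a call, 13 gained one and 24 changed sign. The genes that changed sign had not passed. With the replicate block these were Aurkb (-0.047) and Cdc6 (-0.012); Bub1b changed with TMM scaling (0.0014), array weights (0.10), a pseudocount of 0.1 (0.0047) and voom (0.015), Kif23 (8.7e-05) and Mki67 (0.0026) with array weights. On leaving out 1 sample the log2 fold changes ran from -0.051 to 0.23 for Aurkb, from -0.036 to 0.15 for Tk1, from -0.065 to 0.078 for Bub1b, from -0.064 to 0.061 for Kif23, from -0.23 to 0.0090 for Gins2, from -0.079 to 0.031 for Mki67, from -0.012 to 0.11 for Cdc6 and from -0.21 to 0.11 for Rbbp8. The 2 count tests that were planned need deposited counts and were not run. Depth limits Fen1, Bub1, Ccne2, Cdkn2a and Ska2, with fewer than 100 reads in every sample.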
